A study of Mus musculus with 12 samples.

Results

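The genes described here are 10 read-outs of the ERK pathway in mouse embryonic stem cells: the dual-specificity phosphatases Dusp4, Dusp5 and Dusp6, the Sprouty genes Spry1, Spry2 and Spry4, the Spred genes Spred1 and Spred2, and the ETS transcription factors Etv4 and Etv5. They were chosen by name, through the RefSeq transcript accession that each array probe was designed to. Earlier results of these data were known when they were chosen. All 10 genes had a probe, 13 probes in all, among 54229 probes with a value on every array, and all 10 passed the filter on dim probes that left 24448 genes for testing. Dusp5 passed that filter through a single group, wild-type cells in LIF, so that a call against that group was favoured by the filter and supports nothing on its own. Spred1 had 3 probes and Etv4 had 2, and each gene is given by its brightest probe. RNA of 12 samples was measured on single-colour Agilent arrays, 3 samples for each of 4 groups. Wild-type and Nat1-null cells were each grown with LIF or with 2i+LIF, which makes the 4 groups. All 4 groups thus received LIF, and no group was grown without it. The cells were a stem cell line on gelatin-coated plates. The labels give neither the clone nor whether replicates were separate cultures, so p-values measure only the spread between these samples.

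ERK is the last kinase of the cascade that runs from FGF receptors through Ras, Raf and MEK, and in embryonic stem cells its main input is FGF4 made by the cells themselves. Active ERK phosphorylates ETS factors and induces its own inhibitors: DUSP phosphatases remove the activating phosphates from ERK and related kinases, and Sprouty and Spred proteins act upstream on Ras and Raf. Etv4 and Etv5 encode ETS activators that are induced by FGF signalling. The medium 2i holds an inhibitor of MEK and an inhibitor of GSK3, and LIF acts through STAT3. Nat1 is read as an earlier symbol for Eif4g2, which encodes a translation factor of the eIF4G family.

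The start regions of 3 members are printed: Dusp5, whose window held the one motif match, and Dusp6 and Etv5, which moved in opposite directions with 2i in wild-type cells. Each is the 250 bases before the gene start in RefSeq's annotation of GRCm38.p6, read along the gene's own strand. Dusp5 lies at chr19:53528895-53529144 on the plus strand, Dusp6 at chr10:99262981-99263230 on the plus strand, and the outer of 2 Etv5 starts at chr16:22439571-22439820 on the minus strand. Capitals in the Dusp5 sequence mark 2 adjacent matches to the CArG box, the sequence bound by serum response factor, a transcription factor that works with ETS partners at ERK-induced genes.
Dusp5: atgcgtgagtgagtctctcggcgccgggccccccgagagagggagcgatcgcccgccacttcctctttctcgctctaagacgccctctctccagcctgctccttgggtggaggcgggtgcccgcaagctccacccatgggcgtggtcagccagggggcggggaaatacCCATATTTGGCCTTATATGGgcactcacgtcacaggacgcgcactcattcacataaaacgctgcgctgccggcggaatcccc
Dusp6: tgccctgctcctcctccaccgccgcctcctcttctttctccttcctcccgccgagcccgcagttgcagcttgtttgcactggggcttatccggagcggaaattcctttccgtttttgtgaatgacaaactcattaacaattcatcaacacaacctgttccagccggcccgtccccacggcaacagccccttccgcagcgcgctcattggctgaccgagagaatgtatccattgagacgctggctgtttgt
Etv5: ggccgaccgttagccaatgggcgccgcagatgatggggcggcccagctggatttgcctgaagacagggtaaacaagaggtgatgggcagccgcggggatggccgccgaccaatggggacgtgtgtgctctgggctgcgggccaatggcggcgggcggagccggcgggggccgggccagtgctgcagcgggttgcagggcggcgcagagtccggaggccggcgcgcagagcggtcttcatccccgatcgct
Promoter windows from 250 bases before to 50 bases after the start were found for 7 members (8 windows, as Etv5 has 2), and were not used here for Dusp4, Spry4 and Etv4. The CArG box was found in 1 of the 8 windows, that of Dusp5, with 2 matches whose first bases lie at -82 and -72 relative to the start. It was present in 1.63% of all 32851 promoter windows. Other motifs, searched on both strands, had 0 matches in the 8 windows. The share of all windows that held them was 8.86% for the ETS motif CCGGAAG, 7.81% for the AP-1 motif TGANTCA and 2.47% for the CIC motif (TGAATGAA or TGAATGGA). It was 8.30% for the STAT motif TTCNNNGAA and 16% for the TCF/LEF motif TCAAAG. A match is a description of letters, and 0 matches says only that these letters were not in the windows.

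Levels are log2 signals after subtraction of the array's own 75th percentile, so that 0 is the signal of that percentile and 1 unit is a doubling of signal. Levels of different probes are not compared with each other. The share of spots well above background ran from 49.8% to 66.3% over the arrays, whose number limits the precision. Slide 1 carried the wild-type LIF arrays, slide 2 those of wild-type 2i+LIF and slide 3 both Nat1-null groups. Only the effect of 2i within the null genotype was measured on a single slide, and every other comparison cannot be told apart from the slide. Where 2i or Nat1 loss is said below to raise or lower a gene, a difference between groups is meant. Its p-value does not separate group from slide in those other comparisons. Row 2 of slide 3 held Nat1-null LIF replicate 3 and all 3 Nat1-null 2i+LIF samples, and these 4 arrays had negative-control means between -16.4 and -10.2, outside the scanner program's range. The Eif4g2 signal of Nat1-null cells was 9.31-fold below that of wild-type cells with LIF and 7.52-fold below it with 2i+LIF. The labels do not say where its probe lies relative to the deleted sequence. All 12 markers of embryonic stem cells were well above background on every array.

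In wild-type cells, 2i lowered 6 of the 10 genes: Dusp4, Dusp5, Dusp6, Spry2, Spry4 and Spred1. Spry1 and Etv5 rose, although with no scaling between arrays Spry1 had the opposite sign and neither passed, and Spred2 and Etv4 did not pass the test. Of all genes tested, 27.1% were called lower and 35.1% higher in this comparison (limma, Benjamini-Hochberg adjusted p under 0.05). Without Dusp5, 5 of 9 members were lower. The members' median difference, 2i+LIF minus LIF, was -0.83 on the log2 scale, beside 0.07 over all genes.

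In Nat1-null cells, 2i lowered 5 of the 10 genes, Dusp6, Spry4, Spred1, Spred2 and Etv4, and raised 0, where 16.3% of all genes were called lower and 19.8% higher by limma. At an unadjusted p under 0.05, too, 0 members were higher. The members' median difference was -0.59, and that of all genes 0.04. Dusp6, Spry4 and Spred1 were lower in 2i in both genotypes. Fitted within slide 3 alone, this comparison again called 5 members lower and 0 higher. With the array row as a block within that slide, which rests on the 1 Nat1-null LIF array of row 2, 1 member was called lower. Dusp6 kept its call (-1.98, adjusted p = 0.0272). Spry4 (-2.25, adjusted p = 0.0911), Spred1 (-0.80, 0.0956), Spred2 (-0.73, 0.0721) and Etv4 (-0.79, 0.0879) did not pass there, with differences no smaller than without the block.

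Loss of Nat1 in LIF went with higher levels of 7 of the 10 genes and lower levels of 2. The higher ones were Dusp6, Spry1, Spry2, Spry4, Spred2, Etv4 and Etv5, and the lower ones Dusp4 and Dusp5, the latter subject to the filter as above. Spred1 did not pass. Of all genes, 33.6% were called higher and 33.1% lower, and the members' median difference, Nat1-null minus wild-type, was 0.71 against 0.01 for all genes. Loss of Nat1 in 2i+LIF went with higher levels of 8 members, all but Dusp5 and Etv5, where 19.5% of all genes were called higher. By limma 0 members were lower, also at an unadjusted p under 0.05, where 23.7% of all genes were called lower. The median difference in 2i+LIF was 0.55 for the members and -0.03 for all genes. These comparisons share groups: the wild-type LIF samples enter both the 2i comparison in wild-type cells and the Nat1 comparison in LIF, and the wild-type 2i+LIF and Nat1-null samples are shared in the same way.

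The interaction of genotype and medium, which is the 2i difference in Nat1-null cells minus that in wild-type cells, was called for 6 members. It was positive for Dusp4, Dusp5 and Dusp6, where 22.9% of all genes were called positive, and negative for Spred2, Etv4 and Etv5, where 26.9% were called negative. The Dusp5 value has no settled size, since its Nat1-null 2i+LIF level is only an upper bound, and the probe passed the filter through wild-type LIF. Without Dusp5, 2 of 9 members were positive and 3 negative. Spred2 had the opposite sign with no scaling between arrays. The members' median was 0.22 and that of all genes -0.05. The share of calls that were higher depended on the scaling between arrays. It was 56.4% for 2i in wild-type cells, 50.4% for Nat1 loss in LIF, 45.1% for Nat1 loss in 2i+LIF, 54.8% for 2i in Nat1-null cells and 46.0% for the interaction. With no scaling these shares were 12.8%, 39.3%, 75.9%, 22.2% and 78.5%, and the median over all genes moved to -0.50, -0.14, 0.22, -0.14 and 0.34.

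**Figure D1:**
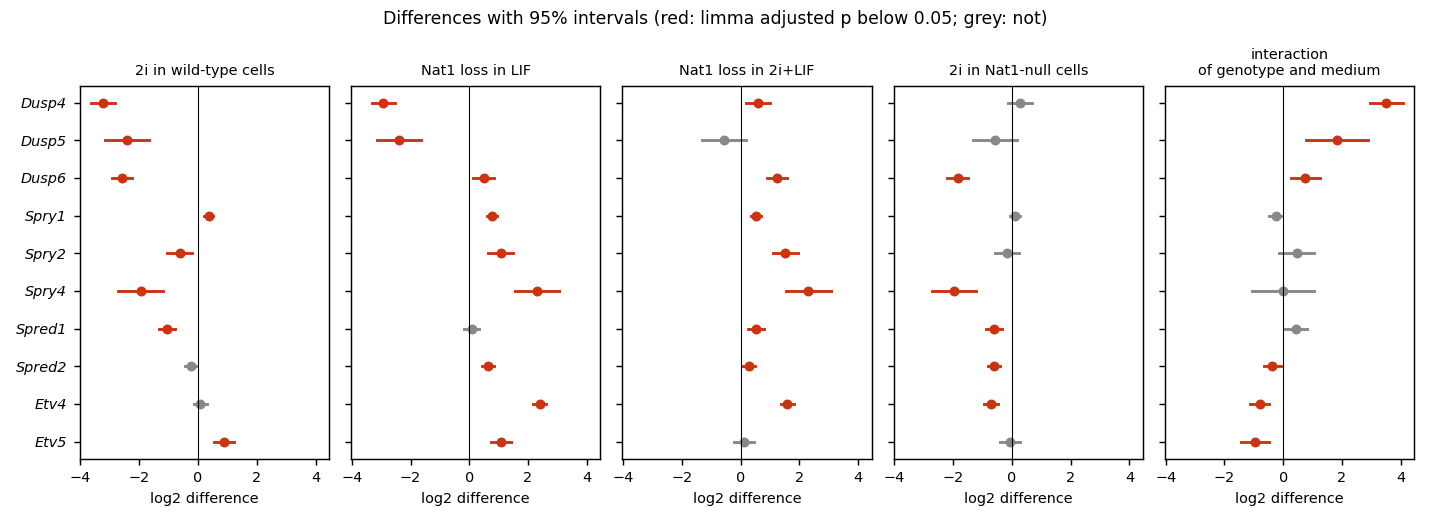
Log2 differences (horizontal axis) of the 10 genes (rows) in 5 contrasts, as points with 95% confidence intervals from limma. Red marks an adjusted p under 0.05 and grey the others. Dusp4 runs from -3.24 for 2i in wild-type cells to 3.51 for the interaction, while Spry4 has nearly the same 2i difference in both genotypes and an interaction interval from -1.07 to 1.06.

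Dusp4 encodes an inducible nuclear phosphatase of MAP kinases. Its level was 0.52, 0.54 and 0.55 in the 3 wild-type LIF samples, in order of replicate number here and below, and -2.73, -2.66 and -2.70 in wild-type 2i+LIF. Nat1-null cells had levels of -2.39, -1.94 and -2.83 in LIF and -2.24, -1.93 and -2.16 in 2i+LIF. Wild-type LIF stood apart from the other 3 groups, and the Nat1-null LIF samples overlapped with both 2i+LIF groups. Dusp4 was 9.43-fold lower with 2i in wild-type cells (log2 difference -3.24 ± 0.18, SE; adjusted p = 3.4e-07). With Nat1 loss in LIF it was 7.60-fold lower (adjusted p = 3.42e-07). In Nat1-null cells the 2i difference was 0.27 (95% interval -0.13 to 0.67, adjusted p = 0.265). The interaction for Dusp4 was 3.51 ± 0.25 (adjusted p = 3.59e-06). In 2i+LIF, Dusp4 was 1.5-fold higher in Nat1-null cells (adjusted p = 0.0245). That call was lost without any 1 of the 3 wild-type 2i+LIF samples (adjusted p = 0.0537 to 0.0655) and without Nat1-null 2i+LIF replicate 2 (0.0783). Without Nat1-null LIF replicate 2, the 2i difference in Nat1-null cells was 0.49 (adjusted p = 0.0135). With normexp background correction, an alternative that adds an offset of 50 to the corrected signal, the wild-type 2i difference was -2.59 and the interaction 2.85.

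Dusp5 encodes a nuclear phosphatase specific for ERK. It was the one member whose tested probe was not well above background on every array. The level was -2.98, -2.83 and -3.05 in wild-type LIF and -4.80, -5.93 and -5.39 in wild-type 2i+LIF. The Nat1-null samples had -4.97, -5.40 and -5.66 in LIF and -5.41, -6.54 and -5.84 in 2i+LIF. Wild-type LIF stood above the other 3 groups, and those overlapped with each other. The probe was well above background on 3 of 3 wild-type LIF arrays, 1 of 3 wild-type 2i+LIF arrays, 1 of 3 Nat1-null LIF arrays and 0 of 3 Nat1-null 2i+LIF arrays. The fitted log2 difference was -2.42 for 2i in wild-type cells and -2.39 for Nat1 loss in LIF, and -0.69 and -0.85 with normexp background correction. Both are descriptions with no fold or test, since the probe entered the fit through wild-type LIF and was measured on 1 of 3 arrays of each lower group. The Nat1 difference in 2i+LIF was -0.56, and that of 2i in Nat1-null cells was -0.59, or 0.05 with normexp. No fold is given for these 2 comparisons either, since the Nat1-null 2i+LIF level has only an upper bound there. The fitted interaction for Dusp5, 1.83, or 0.74 with normexp, rests on the same bound.

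**Figure D2:**
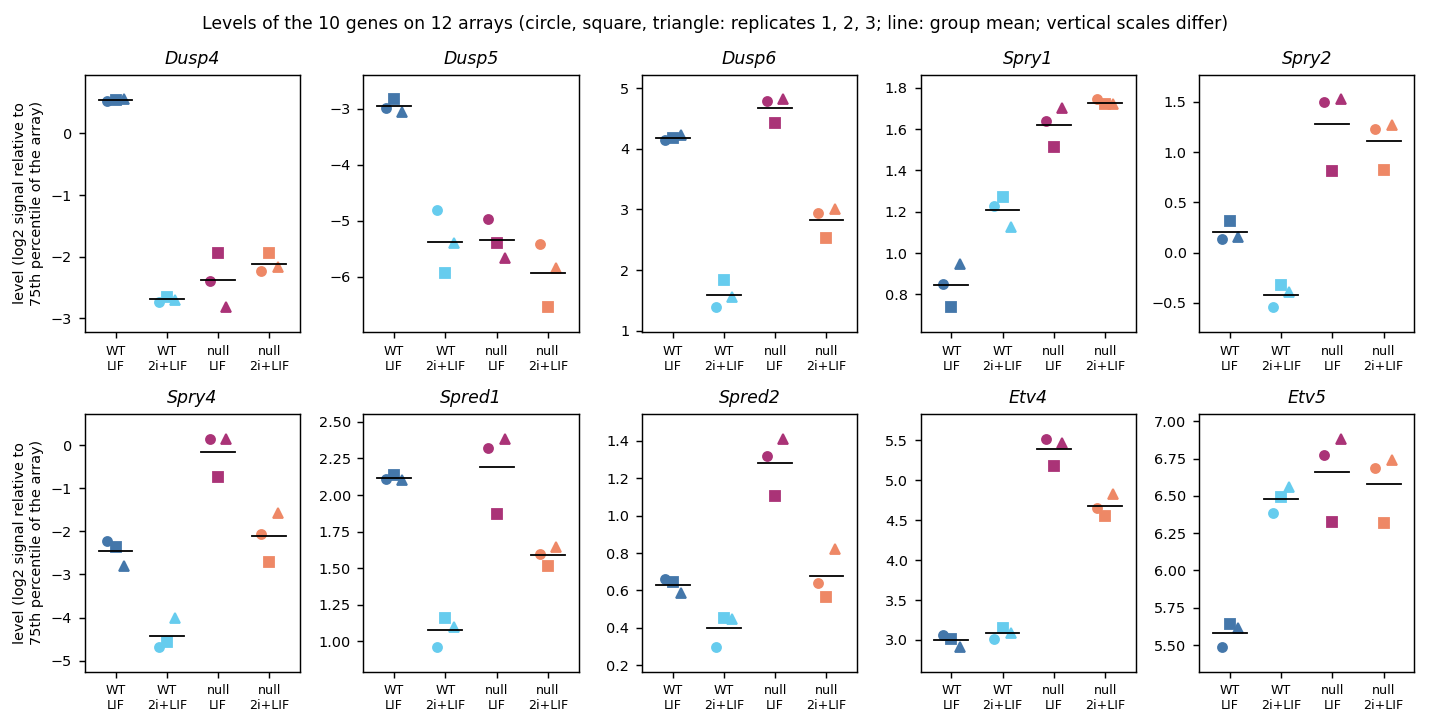
Level of each of the 10 genes (panels; vertical axis, log2 signal minus the array's 75th percentile) on the 12 arrays, by group. Circles, squares and triangles are replicates 1, 2 and 3, lines are group means, and vertical scales differ. Dusp4 and Dusp5 are high in wild-type LIF alone, while Spry4, Spry2 and Etv4 have their highest mean in the Nat1-null LIF group.

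Dusp6 encodes a cytoplasmic phosphatase specific for ERK and is a widely used read-out of ERK activity. Its level was 4.14, 4.18 and 4.22 in wild-type LIF and 1.39, 1.84 and 1.56 in wild-type 2i+LIF. Nat1-null samples gave 4.78, 4.42 and 4.81 in LIF and 2.95, 2.53 and 3.01 in 2i+LIF. The 4 groups did not overlap, and their order from high to low was Nat1-null LIF, wild-type LIF, Nat1-null 2i+LIF and wild-type 2i+LIF. In wild-type cells 2i lowered Dusp6 6.01-fold (log2 difference -2.59 ± 0.16, SE; adjusted p = 5.83e-07). In Nat1-null cells it lowered Dusp6 3.59-fold (-1.84 ± 0.16, adjusted p = 1.94e-05). The fall was smaller in Nat1-null cells by 0.74 ± 0.22 (interaction, adjusted p = 0.0186). Nat1 loss raised Dusp6 2.35-fold in 2i+LIF (adjusted p = 1.66e-04) and 1.41-fold in LIF (0.0186). The call in LIF was lost with no scaling (0.34, adjusted p = 0.0598) and without wild-type LIF replicate 1 (0.0511), Nat1-null LIF replicate 1 (0.061) or Nat1-null LIF replicate 3 (0.0635).

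Among the Sprouty genes, which encode inhibitors of receptor tyrosine kinase signalling to Ras and Raf, Nat1 loss raised all 3 members in both media. Spry4 changed most. Its level was -2.23, -2.36 and -2.80 in wild-type LIF and -4.68, -4.58 and -4.00 in wild-type 2i+LIF. Values in Nat1-null cells were 0.15, -0.74 and 0.14 in LIF and -2.05, -2.70 and -1.57 in 2i+LIF. Nat1-null LIF was highest and wild-type 2i+LIF lowest, and the Nat1-null 2i+LIF samples overlapped with wild-type LIF. 2i lowered Spry4 3.88-fold in wild-type cells (log2 difference -1.96 ± 0.34, SE; adjusted p = 6.05e-04) and 3.89-fold in Nat1-null cells (-1.96 ± 0.34, adjusted p = 0.00152). The interaction was 0.00 with an interval from -1.07 to 1.06 (adjusted p = 0.997), so the 2 falls could differ by up to about 1 log2 unit either way. Nat1 loss raised Spry4 4.96-fold in LIF (adjusted p = 1.6e-04) and 4.95-fold in 2i+LIF (3.91e-04). With normexp the wild-type 2i difference was -0.89, the Nat1 difference in 2i+LIF 1.32, and the interaction -0.71 (adjusted p = 0.0983). Spry4 was dim in wild-type 2i+LIF: the lowest signals well above background on those arrays lay at -5.30, -5.06 and -4.64, in replicate order. The part of the background in its differences was not tested.

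Spry2 stood at 0.14, 0.31 and 0.15 in wild-type LIF and at -0.55, -0.32 and -0.39 in wild-type 2i+LIF. For Nat1-null cells it stood at 1.49, 0.81 and 1.52 in LIF and at 1.23, 0.82 and 1.27 in 2i+LIF. The 6 Nat1-null samples lay above all 6 wild-type samples, and the Nat1-null groups overlapped. Nat1 loss raised Spry2 2.11-fold in LIF (log2 difference 1.07 ± 0.19, SE; adjusted p = 6.05e-04) and 2.88-fold in 2i+LIF (1.53, adjusted p = 1.47e-04). In wild-type cells 2i lowered it 1.54-fold (adjusted p = 0.0164). That call was lost without wild-type LIF replicate 2 (adjusted p = 0.0549) or wild-type 2i+LIF replicate 1 (0.0557). In Nat1-null cells the 2i difference was -0.17 (-0.59 to 0.26, adjusted p = 0.52), and -0.40 without Nat1-null LIF replicate 2 (0.0412). The interaction for Spry2 was 0.45 (-0.15 to 1.05, adjusted p = 0.19), so a difference between the genotypes was not shown. It was 0.84 with no scaling (adjusted p = 0.0163).

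Spry1 was the Sprouty member that was not lower with 2i in either genotype. Its level was 0.85, 0.74 and 0.95 in wild-type LIF and 1.23, 1.27 and 1.12 in wild-type 2i+LIF. Among Nat1-null samples the level was 1.64, 1.52 and 1.70 in LIF and 1.74, 1.72 and 1.72 in 2i+LIF. All 4 groups were separate, rising from wild-type LIF through wild-type 2i+LIF and Nat1-null LIF to Nat1-null 2i+LIF. In wild-type cells Spry1 was 1.29-fold higher with 2i (log2 difference 0.36 ± 0.07, SE; adjusted p = 0.00148), but -0.21 with no scaling between arrays (adjusted p = 0.0839). Nat1 loss raised Spry1 1.71-fold in LIF (adjusted p = 6.41e-06) and 1.43-fold in 2i+LIF (2.83e-04). In Nat1-null cells the difference was 0.11 (-0.05 to 0.27, adjusted p = 0.261). The interaction, -0.25 (-0.48 to -0.03), had an adjusted p of 0.0621. Without 1 sample it passed in 3 cases: wild-type LIF replicate 3 (-0.31, adjusted p = 0.037), wild-type 2i+LIF replicate 3 (-0.30, 0.0485) and Nat1-null LIF replicate 2 (-0.31, 0.0249).

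The Spred genes encode membrane-bound relatives of Sprouty that inhibit activation of Raf by Ras. Spred1 was at 2.11, 2.14 and 2.10 in wild-type LIF and at 0.96, 1.16 and 1.10 in wild-type 2i+LIF. The Nat1-null levels were 2.32, 1.87 and 2.38 in LIF and 1.6, 1.51 and 1.65 in 2i+LIF. The LIF groups overlapped, and the 2i+LIF groups lay below them and apart from each other. 2i lowered Spred1 2.06-fold in wild-type cells (log2 difference -1.04 ± 0.12, SE; adjusted p = 4.24e-05) and 1.52-fold in Nat1-null cells (-0.61, adjusted p = 0.00353). The difference between these falls was 0.44 (0.06 to 0.82, adjusted p = 0.0563). It passed with normexp (0.45, adjusted p = 0.0301), quantile normalization (0.50, 0.0215), no scaling (0.83, 0.00207) and with probes bright on all arrays only (0.0428). It also passed without Nat1-null LIF replicate 1 (0.50, 0.0459), replicate 2 (0.28, 0.0315) or replicate 3 (0.53, 0.024). Nat1 loss raised Spred1 1.43-fold in 2i+LIF (adjusted p = 0.00657). In LIF the difference was 0.08 (-0.19 to 0.35, adjusted p = 0.6), but 0.24 without Nat1-null LIF replicate 2 (0.013) and 0.34 as the mean of the gene's probes (0.0399).

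The other Spred1 probes gave a partly different picture. For 2i in wild-type cells the second probe differed by -1.01 (-1.33 to -0.69) and the third by -0.10 (-0.51 to 0.31). For Nat1 loss in LIF the second differed by 0.28 (-0.04 to 0.59) and the third by 0.66 (0.25 to 1.07, adjusted p = 0.00947 over all probes). The third probe was dim: its level was between -4.80 and -3.72, and it was well above background on 2 of 3 wild-type 2i+LIF arrays and 1 of 3 Nat1-null 2i+LIF arrays. For 2i in Nat1-null cells the second differed by -0.51 (-0.83 to -0.19) and the third by -0.34 (-0.75 to 0.07). The 3 probes thus did not differ in sign for 2i within either genotype, and the size at the third was smaller. The interaction did differ in sign. It was 0.44 at the tested probe and 0.50 at the second (0.05 to 0.95, limma adjusted p = 0.0643 over all probes). At the third it was -0.23 (-0.82 to 0.35, 0.486).

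Spred2 was at 0.66, 0.65 and 0.58 in wild-type LIF and at 0.30, 0.45 and 0.45 in wild-type 2i+LIF. For Nat1-null cells it was at 1.32, 1.10 and 1.41 in LIF and at 0.64, 0.57 and 0.82 in 2i+LIF. Nat1-null LIF was the highest group, and Nat1-null 2i+LIF overlapped with wild-type LIF. Nat1 loss raised Spred2 1.57-fold in LIF (log2 difference 0.65 ± 0.09, SE; adjusted p = 1.46e-04). In Nat1-null cells 2i lowered it 1.52-fold (-0.60 ± 0.09, adjusted p = 8.11e-04). In wild-type cells the 2i difference was -0.23 (-0.44 to -0.02, adjusted p = 0.0518). That difference passed under 10 of the other settings, among them quantile normalization (-0.25, adjusted p = 0.0286), normexp (-0.29, 0.0167) and no scaling (-0.80, 3e-05). In 2i+LIF, Nat1 loss raised Spred2 1.21-fold (adjusted p = 0.036), a call lost under 9 of the other settings (adjusted p from 0.0505 to 0.125). These were no filter on dim probes, a fit of only the groups compared, and the removal of wild-type LIF replicate 1 or 2, any wild-type 2i+LIF replicate, or Nat1-null 2i+LIF replicate 1 or 3. The interaction for Spred2 was -0.37 ± 0.13 (adjusted p = 0.0391), and 0.02 with no scaling (adjusted p = 0.915). It was lost without 1 sample in 9 of 12 cases (adjusted p from 0.0593 to 0.0834), that is, in all but wild-type 2i+LIF replicate 1, Nat1-null LIF replicate 2 and Nat1-null 2i+LIF replicate 3. It was also lost with normexp (0.0551), with no filter on dim probes (0.075) and with the percentile over probes measured on all arrays (0.0507).

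Etv4 showed the largest rise with Nat1 loss in LIF among the ETS members. Its level was 3.06, 3.02 and 2.91 in wild-type LIF and 3.01, 3.15 and 3.09 in wild-type 2i+LIF. In the Nat1-null groups it was 5.52, 5.18 and 5.46 in LIF and 4.65, 4.55 and 4.83 in 2i+LIF. The wild-type groups overlapped, both Nat1-null groups lay above them, and Nat1-null LIF was above Nat1-null 2i+LIF. Nat1 loss raised Etv4 5.24-fold in LIF (log2 difference 2.39 ± 0.10, SE; adjusted p = 2.88e-08) and 3.02-fold in 2i+LIF (1.59 ± 0.10, adjusted p = 2.33e-06). In Nat1-null cells 2i lowered it 1.64-fold (-0.71 ± 0.10, adjusted p = 4.94e-04). In wild-type cells the 2i difference was 0.08 (-0.14 to 0.31, adjusted p = 0.493), and -0.48 with no scaling (0.00134). The interaction was -0.80 ± 0.14 (adjusted p = 0.00119). The second Etv4 probe gave close values, 2.47 for Nat1 loss in LIF, 1.71 in 2i+LIF, 0.05 for 2i in wild-type cells and -0.71 in Nat1-null cells.

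Etv5 had the larger of the 2 rises seen with 2i in wild-type cells. Its level was 5.49, 5.64 and 5.61 in wild-type LIF and 6.38, 6.49 and 6.56 in wild-type 2i+LIF. Levels of Nat1-null samples were 6.77, 6.33 and 6.88 in LIF and 6.69, 6.32 and 6.74 in 2i+LIF. Wild-type LIF was low, and the other 3 groups overlapped. In wild-type cells Etv5 rose 1.86-fold with 2i (log2 difference 0.90 ± 0.15, SE; adjusted p = 5.29e-04), a call lost with no scaling (0.33, adjusted p = 0.0535). Nat1 loss in LIF raised it 2.11-fold (adjusted p = 1.21e-04). In 2i+LIF the Nat1 difference was 0.10 (-0.23 to 0.44, adjusted p = 0.611). In Nat1-null cells the 2i difference was -0.08 (-0.42 to 0.26, adjusted p = 0.716). The interaction for Etv5 was -0.98 ± 0.21 (adjusted p = 0.00376).

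The summed marker levels of other cell types were highest in the group in which Dusp4 and Dusp5 were high, though single markers differed. The summed level of 14 fibroblast and feeder cell markers, in multiples of the array's 75th percentile, was 352 to 376 in wild-type LIF, and wild-type 2i+LIF reached 46.6 to 52.1. The Nat1-null sums were 23.3 to 26.9 with LIF and 30.4 to 37.3 with 2i. In the same order of groups, 13, 10, 8 and 7 of these markers were detected well above background on each of the 3 arrays. Tagln made up 41.4% of the fibroblast sum in wild-type LIF, and Vim 63.3% to 78.7% of it in the other groups. The fibroblast marker Lum was at background in all 4 groups, Postn in all but wild-type LIF and Dcn in both Nat1-null groups. Trophoblast markers (9 with a probe) summed to 177 to 201 in wild-type LIF and to 24.1 to 26.5 with 2i. In the Nat1-null groups they summed to 11.6 to 13.1 with LIF and 31.5 to 33.8 with 2i. Krt18 made up 82.2% of the trophoblast sum in wild-type LIF. Its mean level went from 7.26 in wild-type LIF to 1.37 in wild-type 2i+LIF and 2.00 in Nat1-null LIF, while Eomes (-1.45) and Gata2 (-2.14) were lowest in wild-type LIF. Neural markers summed to 27.9 to 28.9 in wild-type LIF and to 2.83 to 10.4 elsewhere. Nes made up 43.2% of the neural sum in wild-type LIF, and Sox1 was highest in Nat1-null LIF (1.33, beside 1.11 in wild-type LIF). With 2i in wild-type cells 7 of 7 tested neural markers fell, beside 27.1% of all genes. With Nat1 loss in LIF 6 of 7 fell and 1 rose, beside 33.1% of all genes called lower. Primitive endoderm markers did not move together: their sum, 252 to 288 in wild-type LIF and 99.2 to 216 elsewhere, was 93.2% Sparc in wild-type LIF, and Gata4 (-3.27), Gata6 (-1.57) and Lama1 (3.64) were lowest there. With 2i in wild-type cells 6 of 10 tested fell and 2 rose, and of 8 tested trophoblast markers 5 fell and 2 rose. With Nat1 loss in LIF these counts were 5 and 3, and 6 and 2. Of all genes, 27.1% were called lower and 35.1% higher in the first comparison, and 33.1% and 33.6% in the second. The trophoblast marker Hand1 was at background in wild-type 2i+LIF. With 2i in wild-type cells, 9 of 13 tested fibroblast markers fell and 2 rose, with a median difference of -3.55, beside 27.1% of all genes called lower. Those that rose were Fbln1 (1.85) and Pdgfrb (2.05). With Nat1 loss in LIF, 11 of 13 fell and 0 rose, with a median of -3.89, beside 33.1% of all genes. Postn among the fibroblast markers and Fabp7 among the neural ones were at background in every group but wild-type LIF. Both passed the filter through wild-type LIF alone, so their calls against that group, counted here, support nothing on their own. Acta2, smooth muscle actin, went from a mean of 6.30 in wild-type LIF to -1.76 in wild-type 2i+LIF and -3.33 in Nat1-null LIF. The summed level of embryonic stem cell markers was 660 to 683 in wild-type LIF and 937 to 1161 in the other groups. With 2i in wild-type cells 7 of these 12 markers rose and 4 fell, the latter being Lin28a (-2.34), Utf1 (-1.32), Dppa4 (-0.57) and L1td1 (-0.50). Of all genes, 35.1% were called higher and 27.1% lower there. With Nat1 loss in LIF 9 of the 12 rose and 1, Lin28a, fell, beside 33.6% of all genes called higher and 33.1% lower. The part of these markers in the differences of Dusp4, Dusp5 and the other members from wild-type LIF was not tested. In such bulk samples fewer cells of a type and less RNA per cell cannot be told apart.

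**Figure D3:**
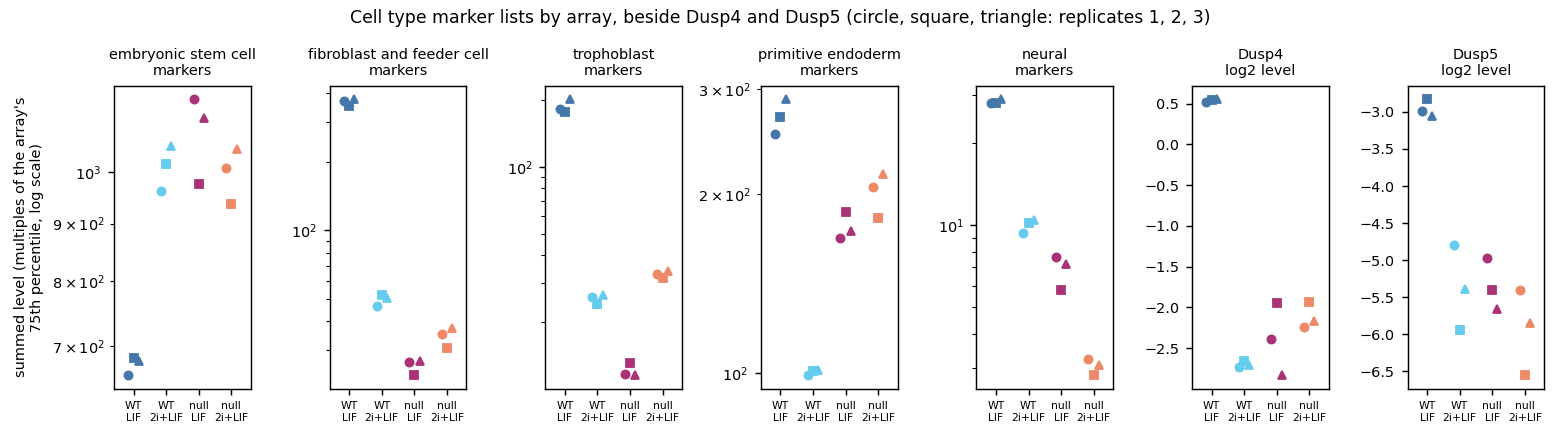
Summed levels of 5 marker lists (log axis, multiples of the array's 75th percentile) and log2 levels of Dusp4 and Dusp5, per array and group. Circles, squares and triangles are replicates 1, 2 and 3. The fibroblast list stands at 352 to 376 in wild-type LIF and at 52.1 or less elsewhere, and Dusp4 is above 0 in that group alone.

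Within groups, samples differed across several members at once. Nat1-null LIF replicate 2 was the lowest of its group for 8 of the 10 genes, with a median deviation from the group mean of -0.23. Dusp4 was highest in that sample. Nat1-null 2i+LIF replicate 2 was the lowest of its group for 9 of 10, with a median deviation of -0.19, again with Dusp4 as the exception. Wild-type 2i+LIF replicate 1 was the lowest for 8 of 10, with a smaller median of -0.10. The median SD of the members was 0.08 (LIF) and 0.10 (2i+LIF) for wild-type samples and 0.29 (LIF) and 0.20 (2i+LIF) for Nat1-null samples. Spry4 had the largest SD in both LIF groups, 0.30 and 0.51, and Dusp5 in both 2i+LIF groups, 0.57 and 0.58.

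**Figure D4:**
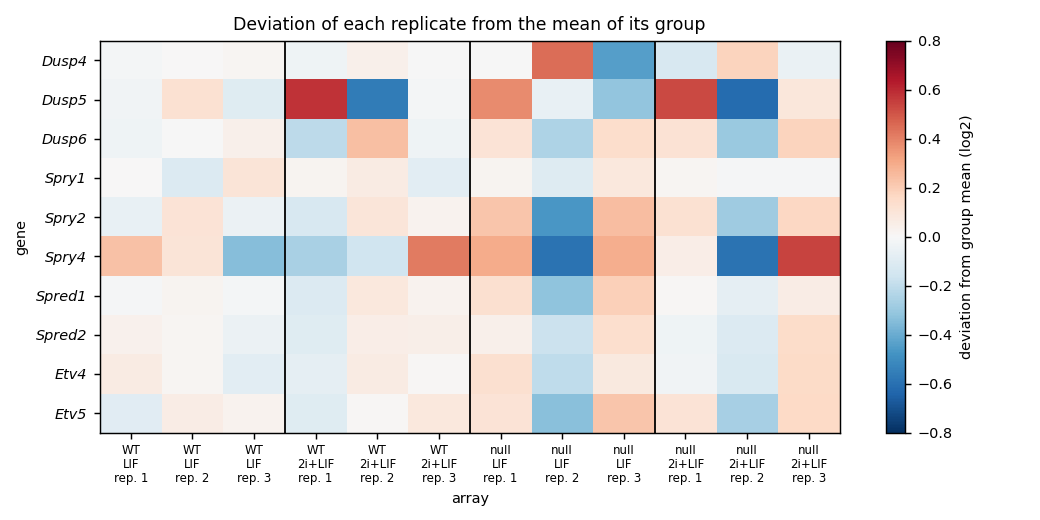
Deviation of each replicate from its group mean (colour, log2 units) for the 10 genes (rows) on the 12 arrays (columns). Blue is below the group mean and red above. The columns of replicate 2 in both Nat1-null groups are blue in 8 and 9 of the 10 rows as the lowest sample of the group, and Dusp4 is the row that is red there.

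The highest correlations between members across the 12 samples were found both between and within families. Pearson's r was 0.98 between Dusp6 and Spred1 and 0.95 between Spry4 and Spred2. It was 0.91 between Spry2 and Etv4, 0.90 between Spry2 and Spry4 and 0.88 between Dusp4 and Dusp5. Dusp4 and Dusp6 had r = 0.45, and Dusp4 and Etv5 ran opposite, at -0.94. The points are 4 groups of 3 samples on shared slides, so these values mostly describe the group means.

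Outside the members, 4271 named genes were well above background on all 12 arrays with group means spanning at least 1 log2 unit. The likeness to each member was Pearson's r over the 12 samples, again as a description. Dusp4 was most like Col16a1, a collagen gene (r = 0.995), and Gsn, which encodes the actin-severing protein gelsolin (0.994). Mean Gsn levels in wild-type cells were 1.57 with LIF and -2.34 with 2i, and in Nat1-null cells -1.86 and -1.54. Dusp5 was most like Ifitm7 (0.969) and Dbndd1 (0.965). Dusp6 was most like Slc7a7, an amino acid transporter subunit (0.982), and Kndc1 (0.981). Like Dusp6, Slc7a7 was low in wild-type 2i+LIF (1.99) and higher in Nat1-null 2i+LIF (2.90), and unlike Dusp6 its means in LIF were close to each other, 4.68 in wild-type and 4.65 in Nat1-null cells.

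For Spry1 the nearest genes were Adi1 (0.987) and the kinase gene Sgk1 (0.986). For Spry2 they were Foxd3, a forkhead transcription factor of pluripotent cells (0.991), and Tmem40 (0.990). Foxd3 means were -0.85 in wild-type LIF and -1.61 in wild-type 2i+LIF, against 1.37 and 0.82 in the Nat1-null groups. For Spry4 they were Smpdl3b (0.985) and Wwc1 (0.982), for Spred1 Dolk (0.985) and the homeobox gene Gbx2 (0.984), and for Spred2 Rasl11a (0.988) and Ttc30a1 (0.976). Gbx2, like Spred1, was lowest in wild-type 2i+LIF (0.27) and nearly level in the LIF groups (2.46 and 2.68). Etv4 was nearest to Zbtb8b (0.994) and Hmces (0.990), and Etv5 to Wdr5, a subunit of histone methyltransferase complexes (0.983), and Fblim1 (0.982).

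Other genes of the pathway are given as 5 whole lists, and the counts cover every tested gene of a list. Of all genes tested, limma called 35.1% higher and 27.1% lower with 2i in wild-type cells, and 33.6% and 33.1% with Nat1 loss in LIF. The shares were 19.5% and 23.7% with Nat1 loss in 2i+LIF, and 19.8% and 16.3% with 2i in Nat1-null cells. They are to be read beside the counts of all 5 lists. The genes named from a list are among its largest called differences, so they do not stand for the list. Of 10 other dual-specificity phosphatases, 6 fell and 1 rose with 2i in wild-type cells (median difference -1.04), and 7 fell and 3 rose with Nat1 loss in LIF (-1.55). In 2i+LIF, 5 were higher and 5 lower in Nat1-null cells (0.04), and 2i in Nat1-null cells raised 6 and lowered 2 (0.33). The higher ones in both of these counts include Dusp8, whose probe was well above background on 0 of 3 arrays of each group compared. Those raised by 2i also include Dusp10, well above background on 1 of 3 arrays in each Nat1-null group. Dusp8 had the largest fitted differences, -4.36 with 2i in wild-type cells and -4.54 with Nat1 loss in LIF. Its probe was well above background on 3 of 3 wild-type LIF arrays and on 0 of 3 in each other group. Like Dusp5, it passed the filter through wild-type LIF alone, so these calls, counted above, support nothing on their own. As a description, Dusp8 was at least 15.4-fold and at least 14.6-fold lower in these comparisons. Each "at least" value here sets the bright group's mean against a level for each array of the dim group. That level is the lowest signal well above background on the array, or the probe's measured level where that is higher. Dusp14 fell by 1.64 and 2.5 in the same comparisons (adjusted p = 9.73e-07 and 3.14e-08), and Dusp2 by 1.97 with 2i in wild-type cells. Dusp9, a cytoplasmic ERK phosphatase, was lower by Nat1 loss in 2i+LIF (-1.44, adjusted p = 3.6e-05).

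Of 10 tested among 12 other feedback inhibitors of receptor tyrosine kinases, 4 rose and 5 fell with 2i in wild-type cells (median -0.18), and 4 rose and 5 fell with Nat1 loss in LIF (-0.34). Spry3 and Spred3 did not pass the filter. With Nat1 loss in 2i+LIF, 2 rose and 3 fell (0.13), and with 2i in Nat1-null cells 2 rose and 1 fell (0.07). Errfi1, an inhibitor of the EGF receptor, fell by 1.40 with 2i in wild-type cells (adjusted p = 9.87e-07), and Flrt3, a membrane protein that binds FGF receptors, fell by 1.52 (5.64e-05). With 2i in Nat1-null cells Flrt3 rose by 1.32 (limma adjusted p = 4.46e-04), and Errfi1 was not called (0.08). Il17rd, the FGF antagonist also called Sef, rose by 0.55 with Nat1 loss in 2i+LIF (adjusted p = 0.00326).

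Of 16 tested among 20 other ETS factors, 7 rose and 5 fell with 2i in wild-type cells (median 0.13), and 8 rose and 5 fell with Nat1 loss in LIF (0.33). With Nat1 loss in 2i+LIF, 6 rose and 1 fell (0.27), and with 2i in Nat1-null cells 7 rose and 4 fell (0.18). Etv1, the closest relative of Etv4 and Etv5, rose by 1.27 with Nat1 loss in 2i+LIF (adjusted p = 5.82e-04). Etv2 fell by 2.67 with 2i in wild-type cells (adjusted p = 1.27e-07), while Elf3 rose by 3.15 (2.33e-07). With 2i in Nat1-null cells both were called higher, Etv2 by 1.08 and Elf3 by 1.47.

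Among 20 tested of 23 other ERK-responsive transcripts, 10 fell and 5 rose with 2i in wild-type cells (median -0.51), and 6 fell and 3 rose with 2i in Nat1-null cells (0.15). The immediate-early gene Egr1 fell by 5.78 in wild-type cells (adjusted p = 1.59e-10) and by 0.99 in Nat1-null cells (1.36e-05), an interaction of 4.80 ± 0.11 (adjusted p = 9.12e-09). In wild-type 2i+LIF the Egr1 probe was well above background on 2 of 3 arrays, so the size depends on the background. Mean Egr1 levels in wild-type cells were 1.06 with LIF and -4.73 with 2i, and in Nat1-null cells -2.10 and -3.09. Plaur, the urokinase receptor gene, fell by 4.06 with 2i in wild-type cells, and Myc by 3.62 (adjusted p = 9.86e-09 and 1.87e-04). With 2i in Nat1-null cells Plaur was called higher by 0.67, and Myc was not called (-1.39). With Nat1 loss, 9 rose and 6 fell in LIF (0.18), and 12 rose and 1 fell in 2i+LIF (0.41). Egr2, like Dusp5, passed the filter through wild-type LIF alone. Its falls with 2i in wild-type cells and with Nat1 loss in LIF are among those counted and support nothing on their own. Plaur rose by 2.12, Egr1 by 1.64 and Myc by 1.54 with Nat1 loss in 2i+LIF, while Egr1 fell by 3.16 and Plaur by 2.61 with Nat1 loss in LIF. Like Dusp4 and Dusp5, Egr1 and Plaur were highest in wild-type LIF. The fibroblast, trophoblast, neural and primitive endoderm marker sums were highest in that group too, and it was alone on its slide. The part of the markers or of the slide in these differences was not tested.

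Of 30 tested among 31 genes of the cascade from FGF to ERK, 11 rose and 9 fell with 2i in wild-type cells (median 0.02). Of all genes, 35.1% were called higher and 27.1% lower there. With Nat1 loss in LIF, 12 rose and 8 fell (0.15), beside 33.6% and 33.1% of all genes. With Nat1 loss in 2i+LIF, 13 rose and 6 fell (0.21), and with 2i in Nat1-null cells 10 rose and 3 fell (0.04). The ligand gene Fgf4 rose by 1.81 with 2i in wild-type cells (adjusted p = 3.54e-08) and by 2.14 with Nat1 loss in LIF (5.12e-09). Fgf5, a marker of the epiblast after implantation, was at least 10.5-fold lower with 2i in wild-type cells and at least 5.62-fold higher with Nat1 loss in 2i+LIF. It fell by 2.28 with Nat1 loss in LIF (adjusted p = 8.03e-05) and rose by 1.37 with 2i in Nat1-null cells (0.00587). The receptor gene Fgfr3 rose by 2.31 with Nat1 loss in LIF and by 2.37 in 2i+LIF (adjusted p = 3.38e-06 and 1.18e-05).

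**Figure D5:**
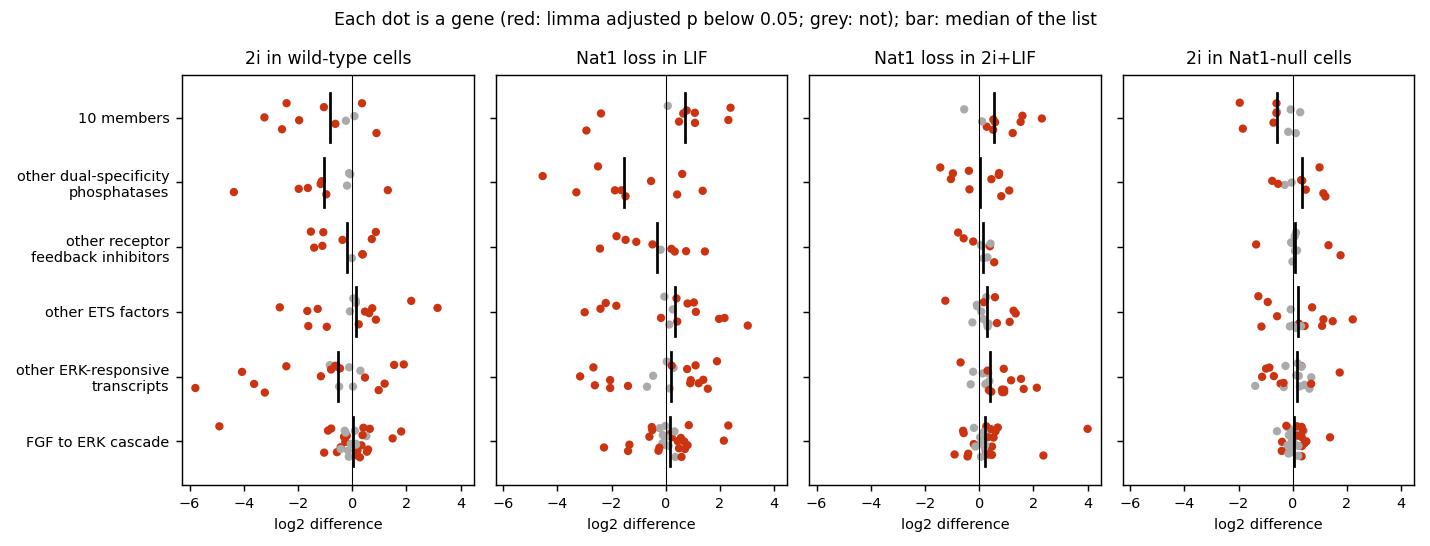
Log2 difference (horizontal axis) of each gene in the 10 members and in 5 lists of other pathway genes (rows), in 4 comparisons. Each dot is a gene, red where the adjusted p was under 0.05, and bars are list medians. The members' bar lies at -0.83 for 2i in wild-type cells and at 0.71 for Nat1 loss in LIF, where the bar of the other phosphatases lies at -1.55.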

How the data were processed

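RNA of 12 samples was measured on single-colour Agilent arrays. The scanner files, per the file headers, are Agilent Feature Extraction output whose intensity values were background-subtracted and detrended within each array by the authors and not scaled between arrays. The series table deposited by the authors holds log2 values of the same arrays shifted to each array's 75th percentile, and was used as an alternative; versions of the upstream tools are not given in the sources used here. Here log2 of the processed signal was taken relative to the 75th percentile of the 55681 gene-directed probes of each array, with control spots left out and spots of a probe averaged. Of 54229 probes with a value on all 12 arrays, 33275 passed the filter, which asked for a signal well above background on each of the 3 arrays of any 1 group, and the brightest probe stood for each of 24448 genes. Probes were named through their RefSeq accession, which gave a symbol to 27656 probes and to 15414 of the genes tested.

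All 4 groups were fitted together with limma 3.58.1 (R 4.3.3), with p-values adjusted by Benjamini-Hochberg over all genes and called under 0.05. Other steps used Python 3.11.15 with numpy 2.4.6, pandas 2.3.3 and, for figures, matplotlib 3.10.9. The members and lists were chosen with earlier results of these data known. The genes named are the 10 members, Eif4g2, up to 3 called genes with the largest differences per list and comparison, and the 2 most similar genes per member; from the lists, examples of these are given. Marker genes of other cell types are named as examples too. Same-numbered samples were checked for pairing: 1 of 18 pairs had a correlation of deviations above 0.1, the highest being 0.30 and the lowest -0.07. The highest was between replicate 2 of Nat1-null LIF and replicate 2 of Nat1-null 2i+LIF. Replicates 1 and 3 of these groups had correlations of 0.04 and 0.01. The numbers were therefore not taken to pair samples, and a shared origin of the replicate 2 samples was not tested. The fit was tested on simulated data. Alternatives covered background correction (normexp with an offset of 50, on the median signal, as no mean signal column was used here), scaling, the filter on dim probes, the choice of probe, the samples fitted, a replicate block, the array row within slide 3 and each sample left out.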

Additional observations from a re-analysis of the deposited data

Results flagged for a closer look

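For 6 of the 10 genes limma called a difference in the 2i response between the genotypes (adjusted p under 0.05 over all genes). Without Dusp5, which passed the filter through wild-type LIF alone, 2 of 9 members were positive and 3 negative. The value given is the 2i difference in Nat1-null cells minus that in wild-type cells, on the log2 scale. For Dusp4 it was 3.51 and for Dusp6 0.74. For Dusp5 the fitted value was 1.83, which has no settled size: the probe passed the filter through wild-type LIF and was well above background on 1, 1 and 0 of 3 arrays in the other groups. For Spred2 it was -0.37, for Etv4 -0.80 and for Etv5 -0.98. Dusp4, Dusp5 and Etv5 have wild-type LIF as the group that stands apart, and that group was alone on its slide. Etv4 fell with 2i in Nat1-null cells, and its levels in the wild-type groups overlapped. Within slide 3 all 2i+LIF arrays and 1 of 3 LIF arrays lay in row 2, and with the row as a block Etv4 differed by -0.79 (adjusted p = 0.0879).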

How the results depend on the processing

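Of the member differences recomputed under alternatives, 1075 kept their direction and side of the threshold, 36 lost a call, 25 gained one and 19 changed sign. In 3 of those 19 a call was involved, all with no scaling between arrays: 2i in wild-type cells for Spry1 (-0.21) and Etv4 (-0.48), and the interaction for Spred2 (0.019). The others were uncalled before and after. With no scaling they were Nat1 loss in LIF for Spred1 (-0.071), 2i in Nat1-null cells for Spry1 (-0.070), and the interaction for Spry1 (0.14) and Spry4 (0.39). Spred1 was at -0.023 for Nat1 loss in LIF with quantile normalization, and Dusp5 at 0.051 for 2i in Nat1-null cells with normexp. The Spry4 interaction was 1.9e-05 in the authors' series table and 0.015 with the percentile over probes measured on all arrays. With 1 sample left out, the Spry4 interaction ranged from -0.30 to 0.29, the 2i difference of Etv5 in Nat1-null cells from -0.25 to 0.053, and Nat1 loss in LIF for Spred1 from -0.020 to 0.24. With the array row as a block within slide 3, added after seeing the data, 1 member was lower with 2i in Nat1-null cells, and 805 genes were higher and 733 lower. With no scaling, 0 members were higher with 2i in wild-type cells and 5 had a positive interaction. With probes bright on all arrays only, 1 member was lower with Nat1 loss in LIF, since Dusp5 was then not tested. Leaving out each sample in turn gave 5 to 7 members lower and 2 higher with 2i in wild-type cells, 2 lower and 6 to 8 higher with Nat1 loss in LIF, and 0 lower and 6 to 8 higher with Nat1 loss in 2i+LIF. It gave 5 to 6 lower and 0 to 1 higher with 2i in Nat1-null cells, the 1 being Dusp4 without Nat1-null LIF replicate 2, and 2 to 4 negative and 3 to 4 positive interactions. A fit with the replicate number as a block changed no member's call: it gave 6 lower and 2 higher with 2i in wild-type cells, 2 and 7 with Nat1 loss in LIF, 0 and 8 in 2i+LIF, 5 and 0 with 2i in Nat1-null cells, and 3 and 3 for the interaction. Over all genes, no scaling changed 8578 higher and 6621 lower calls to 2239 and 15235 for 2i in wild-type cells, 4767 and 5800 to 9890 and 3147 for Nat1 loss in 2i+LIF, 4843 and 3987 to 1910 and 6710 for 2i in Nat1-null cells, and 5598 and 6575 to 10265 and 2808 for the interaction. Fitted within slide 3, 2i in Nat1-null cells had 2414 higher and 2229 lower calls, with fewer samples in the fit. The percentile over probes measured on all arrays was added after seeing the data. The slide as a random block was not run, because each group lay on 1 slide. Signal over background limits Dusp5, above background on 1, 1 and 0 of 3 arrays outside wild-type LIF. The cause of the other changes was not tested, including that of the smaller Spry4 differences with normexp.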
